A study of Mus musculus with 12 samples.

Results

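The genes described here are 50 genes of mitosis and chromosome segregation, chosen by gene symbol from a list that runs from the mitotic cyclins to the proteins that divide the cell. The array carried a named probe for 49 of them, no probe being named Ccnb1, and 43 were bright enough to be tested among the 9934 genes tested in all. They were followed on 12 Illumina mouse bead arrays of E14 embryonic stem cells of genotype Hdac1 lox/lox, Hdac2 lox/lox; CreER. HDAC1 and HDAC2 are the closely related histone deacetylases of several corepressor complexes, and CreER is a Cre recombinase that OHT (4-hydroxytamoxifen) activates, so that OHT deletes the floxed parts of both genes. Total RNA was taken at days 0, 1, 2 and 3, with 3 arrays per day, from cells grown without feeders in serum and LIF and given OHT for 16 hours. The day 0 titles also carry OHT, yet the design text names day 0 as the wild type, and whether day 0 cells met OHT is not stated. All 4 groups share the floxed alleles and the recombinase. Its promoter and the number of cell clones are not given in the sources used here, and no cells with OHT but without lox sites, and none kept untreated for the same days, were among the samples. Cells that lack HDAC1 and HDAC2 are reported to segregate their chromosomes badly, and the comparison of each later day with day 0 asks whether transcripts of the segregation machinery change.

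In mitosis, cyclins switch on the kinase CDK1, condensins and topoisomerase II compact and untangle the chromosomes, and kinetochores built on centromeric chromatin attach each sister chromatid to spindle microtubules. The spindle checkpoint holds back the anaphase-promoting complex until all kinetochores are attached. The complex then removes securin, separase cuts the cohesin that holds sisters together, and the central spindle and a contractile ring divide the cell. Transcripts of this machinery peak together in G2 and M phase, through MuvB-based complexes that bind a short promoter element called the CHR (cell cycle genes homology region) and through the factor NF-Y at CCAAT boxes. Mouse embryonic stem cells cycle fast, and a large share of them is in S, G2 or M phase at any time.

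The promoters of the listed genes share these letters. RefSeq promoter windows of build GRCm38.p6, which run from 250 bases before to 50 bases after a transcript start, were at hand for 42 of the 50 genes. The CHR core TTTGAA, searched on both strands (TTCAAA on the other), was found in 29 of the 42 (69.0%), against 20.2% of 27025 mouse genes with a window. The box CCAAT, or ATTGG where it lies on the other strand, was found in 32 of 42 (76.2%), against 41.1% of all genes, and both were found in 25 of 42 (59.5%), against 7.97%. The variant TTCGAA, the same on both strands, was in 4 of 42 (9.52%), against 1.80% of all genes. Matches that overlap by a base were each counted. TTTGAA was found in 4 of the 7 windows of genes that fell by day 3, in 1 of the 2 of genes that rose and in 22 of the 28 of genes that were not called. The variant TTCGAA was found in 2 of the 7, 0 of the 2 and 1 of the 28. These matches describe the letters only and do not show a bound site. The stretch from 100 bases before to 20 bases after the start is printed for 5 genes that carry both elements there and that behaved differently on the arrays, 5′ to 3′ on the strand of the gene. Capitals mark the CHR core and the CCAAT box on either strand. Top2a and Kif11 fell by day 3, Cenpf rose, Cdc20 was lower at day 2 alone among the later days tested against day 0, and Cdk1 was called on no day. The regions are chr11:99024170-99024289 (minus strand) for Top2a, chr19:37376282-37376401 (plus strand) for Kif11, chr1:189688067-189688186 (minus strand) for Cenpf, chr4:118437324-118437443 (minus strand) for Cdc20 and chr10:69352893-69353012 (minus strand) for Cdk1.
Top2a: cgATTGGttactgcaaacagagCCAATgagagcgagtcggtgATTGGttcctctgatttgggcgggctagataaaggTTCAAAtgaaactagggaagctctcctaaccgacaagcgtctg
Kif11: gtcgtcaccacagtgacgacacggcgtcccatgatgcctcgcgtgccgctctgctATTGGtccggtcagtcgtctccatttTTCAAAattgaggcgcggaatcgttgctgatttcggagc
Cenpf: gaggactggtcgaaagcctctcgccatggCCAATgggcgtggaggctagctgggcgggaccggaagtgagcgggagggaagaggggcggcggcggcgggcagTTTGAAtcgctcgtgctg
Cdc20: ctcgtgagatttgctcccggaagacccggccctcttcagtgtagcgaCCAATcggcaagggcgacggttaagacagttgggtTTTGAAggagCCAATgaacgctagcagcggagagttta
Cdk1: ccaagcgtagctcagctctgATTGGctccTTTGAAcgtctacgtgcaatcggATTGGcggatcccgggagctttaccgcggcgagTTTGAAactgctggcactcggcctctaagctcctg

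Before normalization, the upper quartile of an array's intensities lay between 272.2 and 382.2, and 14509 to 16770 of the 45281 probes were detected per array. No probe is named Hdac1. Of the Hdac2 probes, ILMN_2640441 read 13.12 to 13.60 at day 3 and 13.40 to 13.70 at day 0 on the log2 scale, and the dimmer ILMN_1231785 was detected on 0 of 3 arrays at day 3 and on 3 of 3 at day 0. Whether either lies in the deleted part is not given in the sources used here, so neither checks the deletion. All 10 listed embryonic stem cell markers were detected on every day, but 6 of the 10 (60%) fell at day 3, where 17.8% of all genes fell, with a median change of -0.50. The pluripotency factors Pou5f1, Sox2 and Nanog had changes of -0.66, -0.80 and -0.73 (limma adjusted p = 0.00331, 0.000863 and 0.00704). The summed intensity of the 10 was 129726 to 130582 at day 3 and 156930 to 160446 at day 0, and Dppa5a, one of the 10, had a change of 0.01. Of 12 fibroblast markers, 8 were undetected on all arrays, the collagens Col1a2 and Col3a1 among the 8, and the collagen Col1a1 was detected on 1 array. The summed intensity of the 12 ranged from 3413 to 5121 on the day 3 arrays and from 1499 to 1713 on the day 0 arrays. Thy1 averaged 11.95 at day 3 and 10.20 at day 0 in log2 units. Of 10 trophectoderm markers 4 were undetected throughout, and the 10 summed to 8772 to 10303 on day 3 arrays and 5355 to 5877 on day 0 arrays. Tfap2c, the brightest of them, averaged 13.05 at day 3 and 12.28 at day 0 in log2 units. Of the 6 tested, 3 rose (50%, against 21.4% of all genes), and Cdx2 alone fell (-0.52, limma adjusted p = 0.0133). Of 8 endoderm markers 5 were undetected throughout, and the 8 summed to 633 to 693 on day 3 arrays and 551 to 617 on day 0 arrays. These lists moved over the same days as the genes below, and their part in the results was not tested. RNA came from whole cultures, so fewer cells in mitosis and less RNA per cell cannot be told apart. Nothing states that the 3 replicates of a day were separate cultures, and the p-values then measure only the spread between these samples.

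Most transcripts of the machinery kept within 2-fold of their day 0 level at day 3, as did most of all genes tested. Levels are normalized log2 intensities, and a gene was called changed at a limma adjusted p (Benjamini-Hochberg over all 9934 genes) under 0.05. At day 3, 2 of the 43 tested genes rose (Cenpf and Birc5), 8 fell (Ect2, Nuf2, Top2a, Cenpk, Ttk, Esco2, Kif11 and Sgo1) and 33 were not called. These 10 make 23.3% of the 43, where 39.1% of all genes tested were called. By direction, 4.65% of the 43 rose against 21.4% of all genes, and 18.6% fell against 17.8%. The 43 genes had a median change of -0.09 in log2 units and all genes tested one of 0.01, and 32 of the 43 changes were below 0. The median size of change without regard to sign was 0.19 for the 43 and 0.34 for all genes, with median standard errors of 0.15 and 0.16. Called or not, 1 of the 43 (Ect2) had a change beyond 2-fold, as 970 of all genes had. Of the 43 changes, 39 had a 95% interval inside 2-fold in either direction and 24 had one inside 1.5-fold. Such intervals were not counted over all genes. In 11 genes the day 3 arrays did not overlap the day 0 arrays (25.6% of the 43), where 45.3% of all genes showed this, and Cenpa and Kif22 were in this group without being called. With the replicate number as a block, 3 of the 43 rose and 9 fell (27.9%, against 45.5% of all genes), Ttk being lost and Bub1b, Tpx2 and Spc24 gained. With each array scaled by its 75th percentile, 1 of the 43 rose and 12 fell, where 1841 and 2165 of the 9934 genes did. With no scaling between arrays none of the 43 was called and 12.5% of all genes were. Leaving out day 3 replicate 1 or replicate 2 left 3 falls, where 1574 and 1465 of the 9934 genes fell. Leaving out day 0 replicate 1 left 4 (1430 of all genes), and leaving out day 3 replicate 3 gave 11 (1843 of all genes). Leaving out any one of day 0 replicates 1 and 3 and day 3 replicates 1 and 2 left 1 rise.

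**Figure D1:**
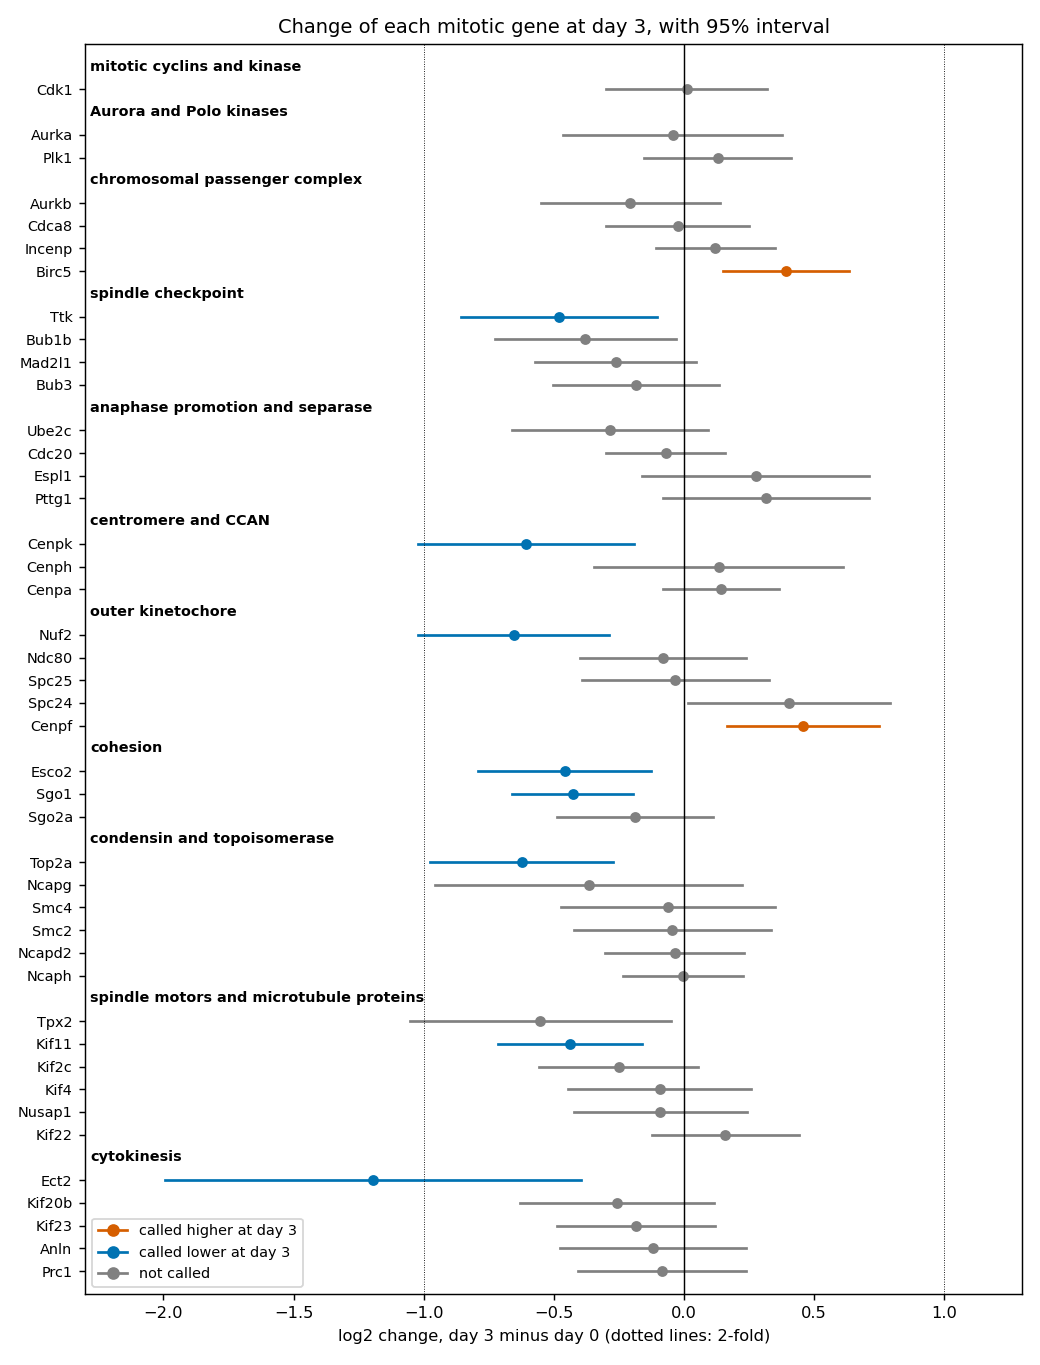
Changes of the 43 tested mitosis genes at day 3 against day 0, in log2 units on the horizontal axis with 95% intervals of limma, grouped by role down the page. Of the 43 intervals, 39 lie inside 2-fold in either direction, and the 10 called genes include 8 to the left of 0 and 2 to the right. Intervals were not counted over all genes.

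Fewer of the genes were called at the earlier days. At day 2, none of the 43 genes rose and 2 fell, Bub3 and Cdc20, which is 4.65% of the 43 where 22.4% of all genes tested were called (14.8% higher and 7.6% lower). The median change was -0.06 and that of all genes 0.03. Leaving out day 0 replicate 2, day 2 replicate 2 or day 2 replicate 3 left 0 falls, and leaving out day 0 replicate 3 left 1. With 75th percentile scaling 6 of the 43 fell (14.0%), where 1357 of the 9934 genes did. At day 1, none of the 43 was called by limma in either direction, where 0.101% of all genes (10 genes) were called, and none had an unadjusted p under 0.05, as 994 of all genes had. The median change at day 1 was -0.08 and that of all genes 0.02. These 3 comparisons share the day 0 arrays. Between neighbouring days, none of the 43 was called at day 2 against day 1 (10.8% of all genes), and Esco2 alone fell at day 3 against day 2 (12.4% of all genes called, 6.7% lower). With the replicate number as a block, 5 of the 43 were called at day 3 against day 2 (11.6%, against 19.9% of all genes). In that last comparison the median size of change was 0.25 for the 43 and 0.22 for all genes. Over all 4 days together, limma's F test called Sgo1, Nuf2, Esco2 and Top2a, 9.3% of the 43, where it called 37.6% of all genes. Leaving out day 3 replicate 2 left 0 of these calls, leaving out replicate 1 of day 3 or replicate 3 of day 2 left 2, and leaving out replicate 3 of day 3 gave 10. The replicate block also raised the F test count of the 43, which the closing section gives. The call of Esco2 between days 2 and 3 was lost without any one of day 2 replicates 1 and 3 and day 3 replicates 1 and 2, and 7 genes fell there without day 3 replicate 3.

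The day 3 arrays were not alike. Taken over the 43 genes, the median difference from the day 0 mean was -0.09 on day 3 replicate 1, -0.25 on replicate 2 and 0.00 on replicate 3, against -0.01 to 0.03 on the day 0 arrays. Of the 43 genes, 16 were above their day 0 mean on replicate 1, 12 on replicate 2 and 21 on replicate 3. The median over all genes was 0.01 to 0.02 on them, which quantile normalization holds near 0 in advance. With no scaling between arrays the median change at day 3 was -0.09 over all genes and -0.29 over the 43. Before normalization, day 3 replicate 2 had the lowest upper quartile of intensity (272.2) and the fewest detected probes (14509) of the 12 arrays. Day 3 replicates 1 and 3 had 312.9 and 371.2, with 16454 and 16492 probes. Day 0 replicate 2 was nearly as low (274.1 and 14977 probes), with a median of -0.01 over the 43 genes. Whether these array differences bear on the falls was not tested. Replicate 3 of day 3 lay nearer to day 0 than the other day 3 arrays for several of the genes below. Without it, 3 of the 43 genes rose and 11 fell at day 3, where 2176 and 1843 of the 9934 genes did. Bub1b, Mad2l1, Tpx2 and Spc24 were then called in addition.

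**Figure D2:**
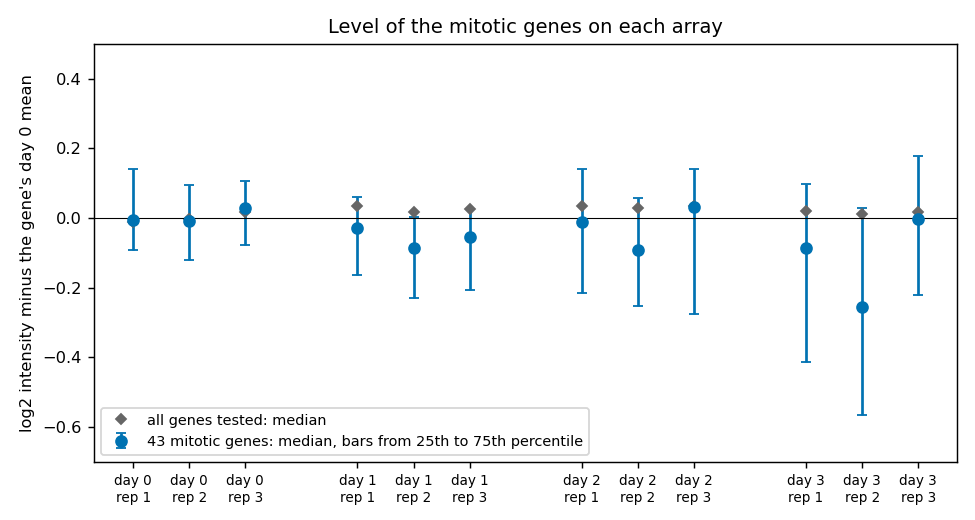
Median difference from the day 0 mean on each of the 12 arrays, in log2 units on the vertical axis, over the 43 mitosis genes (with bars from the 25th to the 75th percentile) and over all genes tested. The day 3 medians of the mitosis genes are -0.09, -0.25 and 0.00, and those of all genes stay within 0.01 to 0.02 there. Quantile normalization holds the median of all genes near 0 in advance.

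Of the mitotic cyclins and their kinase, only Cdk1 could be tested. Cdk1 is the kinase that drives entry into mitosis. It read 13.41, 13.33 and 12.96 at day 0, 13.31, 13.23 and 12.95 at day 1, 13.23, 13.31 and 13.27 at day 2 and 13.37, 13.27 and 13.10 at day 3. All 4 groups overlapped. The change at day 3 was 0.01 ± 0.14 (SE) with a 95% interval of -0.30 to 0.32 (limma adjusted p = 0.964). This interval lies inside 1.5-fold. The cyclins Ccna2 and Ccnb2 were below the filter: the Ccna2 probe was detected on 2 of 12 arrays at 5.51 to 6.36, and the Ccnb2 probe on 0 arrays at 4.62 to 5.14. The dimmest detected probe of an array read 5.89 to 6.37, so a fall of these cyclins from day 0 could hardly have been seen. A clear rise above this level could have been seen only if the probes respond to their transcripts, which was not tested.

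The kinases Plk1 and Aurka, which build and orient the spindle, were called on no day. Plk1 read 11.45, 11.52 and 11.73 at day 3 and 11.33, 11.30 and 11.67 at day 0, with overlapping groups and a change of 0.13 (95% interval -0.15 to 0.41, limma adjusted p = 0.46). Aurka had a change of -0.04 with an interval of -0.46 to 0.38.

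In the chromosomal passenger complex, which corrects wrong attachments at the centromere, Birc5 rose and its 3 partners were not called. Birc5 (survivin) is the subunit that brings the complex to chromatin. It read 13.58, 13.41 and 13.38 at day 3, against 12.96, 13.09 and 13.15 at day 0. Every day 3 array lay above every day 0 array, and days 1 and 2 (13.05 to 13.27) overlapped day 0. The change was 0.39 ± 0.11 (1.31-fold higher, limma adjusted p = 0.0142), and its 3 detected probes gave 0.39, 0.51 and 0.38. With 75th percentile scaling it was 0.21 (adjusted p = 0.239), without day 0 replicate 1 it was 0.34 (adjusted p = 0.0525), and without day 3 replicate 1 it was 0.33 (adjusted p = 0.0596). The kinase Aurkb had a change of -0.21, the scaffold Incenp of 0.12 and Cdca8 (borealin) of -0.02.

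The spindle checkpoint had 4 tested genes, all with changes below 0 at day 3, of which Ttk fell. Changes below 0 were also seen in 32 of all 43 genes and in 4938 of the 9934 genes tested. Ttk (Mps1) is the kinase that starts checkpoint signalling at unattached kinetochores. It read 7.01, 7.04 and 7.45 at day 3, against 7.63, 7.56 and 7.75 at day 0. No day 3 array reached the day 0 range, and 1 day 1 array (6.88) lay below all of them. The change was -0.48 ± 0.17 (1.40-fold lower, limma adjusted p = 0.0434), and it was kept in 9 of 22 alternative settings. It was lost without any one of the day 0 and day 2 arrays and of day 3 replicates 1 and 2 (adjusted p = 0.0536 to 0.134). Its adjusted p was 0.0521 when replicate numbers entered as a block. Bub1b (BubR1), which inhibits the anaphase-promoting complex, had a change of -0.38 (limma adjusted p = 0.0785). Its adjusted p with the replicate block was 0.0172, and its second probe gave -0.47. Mad2l1, the other core inhibitor, had a change of -0.26 (adjusted p = 0.161). Bub1, which recruits the others to the kinetochore, had 2 probes detected on 0 arrays, at 4.62 to 5.90.

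Bub3, the partner of Bub1 and Bub1b, fell at day 2. It is given in full, as is Cdc20, because they were the calls of that day. Bub3 read 9.09, 8.83 and 8.66 at day 2, against 9.43, 9.47 and 9.12 at day 0. The groups did not overlap, and at day 3 it read 9.34, 9.17 and 8.94. The day 2 change was -0.48 ± 0.15 (1.40-fold lower, limma adjusted p = 0.0335) and the day 3 change was -0.18 (adjusted p = 0.344). The day 2 call was lost without any one of day 0 replicates 1 and 2 and day 2 replicates 2 and 3 (adjusted p = 0.0915 to 0.131).

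Of the genes that trigger anaphase, Cdc20 fell at day 2 and none was called at day 3. Cdc20 activates the anaphase-promoting complex. It read 12.56, 12.43 and 12.48 at day 2, against 12.79, 12.87 and 12.87 at day 0. The groups did not overlap, and at day 3 (12.77, 12.69 and 12.86) they did. The day 2 change was -0.35 ± 0.11 (1.28-fold lower, limma adjusted p = 0.0301), its 4 probes gave -0.35, -0.46, -0.29 and -0.50 at day 2, and the day 3 change was -0.07 (adjusted p = 0.635). The day 2 call was lost without any one day 0 array and without day 2 replicate 2 or 3 (adjusted p = 0.0502 to 0.0969). The direct limma tests between days 2 and 3, without the replicate block, did not pass for Cdc20 (0.28, adjusted p = 0.0955) or Bub3 (0.30, adjusted p = 0.201). Ube2c, the ubiquitin-conjugating enzyme of the complex, had a change of -0.48 at day 2 (adjusted p = 0.0639) and of -0.28 at day 3. Pttg1 (securin), the inhibitor of separase, read 7.34, 6.94 and 7.42 at day 3 and 6.67, 7.17 and 6.90 at day 0. These groups overlapped, with a change of 0.32 and an interval of -0.08 to 0.71. Espl1 (separase), the protease that cuts cohesin, had a change of 0.28.

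At the centromere, Cenpk fell. Cenpk belongs to the constitutive network that links centromeric chromatin to the outer kinetochore. It read 9.22, 9.06 and 9.40 at day 3, against 10.00, 9.96 and 9.55 at day 0. The groups did not overlap, although 1 day 2 array was as low as day 3 (9.29). The change was -0.61 ± 0.19 (1.52-fold lower, limma adjusted p = 0.0235), and it was lost without any one of day 0 replicates 1 and 2 and day 3 replicates 1 and 2 (adjusted p = 0.0552 to 0.0856). Cenph of the same network had a change of 0.13, and Cenpa, the histone H3 variant that marks the centromere, of 0.14 with an interval of -0.08 to 0.36.

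The outer kinetochore held 1 fall and 1 rise. Nuf2 is a subunit of the NDC80 complex, which grips the microtubule. It read 8.0, 7.63 and 8.07 at day 3, against 8.26, 8.72 and 8.68 at day 0. All day 3 arrays were below all day 0 arrays, and the day 2 arrays, at 7.93, 8.35 and 8.08, overlapped both. The change was -0.65 ± 0.17 at day 3 (1.57-fold lower, limma adjusted p = 0.00839) and -0.43 at day 2 (adjusted p = 0.086). The day 3 fall was kept in 21 of 22 settings and lost with no scaling between arrays. The other 3 subunits of the complex were not called: Ndc80 had a change of -0.08, Spc25 of -0.03 and Spc24 of 0.40 (adjusted p = 0.0913). Spc24 was called with the replicate block (adjusted p = 0.0127), while its second probe gave -0.39, so its direction depends on the probe.

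Cenpf, a large coiled-coil protein of the kinetochore corona, rose. It read 7.12, 7.34 and 7.19 at day 3, against 6.90, 6.87 and 6.51 at day 0. All day 3 arrays were above all day 0 arrays, and the lowest array was day 0 replicate 3. The change was 0.46 ± 0.13 (1.37-fold higher, limma adjusted p = 0.0168), without day 0 replicate 3 it was 0.33 (adjusted p = 0.0685), and without day 3 replicate 2 it was 0.40 (adjusted p = 0.0614). It was 0.20 with the authors' processed values (adjusted p = 0.0567), and a second, dimmer probe gave 0.21. The motor Cenpe of the same corona was detected on 0 arrays, at 4.85 to 5.67.

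Of the 3 genes that protect or establish cohesion, Sgo1 and Esco2 fell. Sgo1 (shugoshin) shields centromeric cohesin until anaphase. It read 10.74, 10.54 and 10.79 at day 3, against 11.18, 11.06 and 11.11 at day 0. Here too the day 3 and day 0 arrays were apart, and day 2 (10.84 to 10.98) lay between them. The change was -0.43 ± 0.11 (1.35-fold lower, limma adjusted p = 0.00668), kept in 21 of 22 settings and lost with no scaling between arrays. Esco2, which acetylates cohesin in S phase, read 12.01, 12.10 and 12.07 at day 0, 12.30, 12.03 and 12.29 at day 2 and 11.36, 11.45 and 11.99 at day 3. All day 3 arrays were below day 0, replicate 3 by little. The change was -0.46 ± 0.15 against day 0 (1.37-fold lower, limma adjusted p = 0.0308) and -0.60 ± 0.15 against day 2 (adjusted p = 0.0235). The call against day 0 was lost without any one day 0 array and without day 3 replicate 1 or 2 (adjusted p = 0.0566 to 0.124). Sgo2a, the paralogue of Sgo1, had a change of -0.19.

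Among the condensin subunits and topoisomerase II, Top2a fell and the 5 condensin genes were not called. Top2a is the enzyme that untangles sister DNA. It read 11.94, 11.61 and 11.87 at day 3, against 12.70, 12.36 and 12.22 at day 0. The groups did not overlap, and days 1 and 2, at 11.96 to 12.42, lay above day 3 and overlapped day 0. The change was -0.62 ± 0.16 (1.54-fold lower, limma adjusted p = 0.00848), kept in 21 of 22 settings and lost with no scaling between arrays. Its second probe gave -0.36 (adjusted p = 0.0853) and another, near the detection limit, -0.07. Smc2 had a change of -0.05, Smc4 of -0.06, Ncapd2 of -0.04, Ncaph of 0.00 (interval -0.23 to 0.22) and Ncapg of -0.37 with a wide interval of -0.95 to 0.22. Other Smc4 probes gave -0.49 (limma adjusted p = 0.106), at nearly the same brightness, and -0.17. Ncapg was detected on 2 of 3 arrays at day 0 and at day 3. Without day 0 replicate 2 the change of Ncapg was -0.67 (adjusted p = 0.0494). The probes of Ncapd2 and of Ncaph differed in sign.

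**Figure D3:**
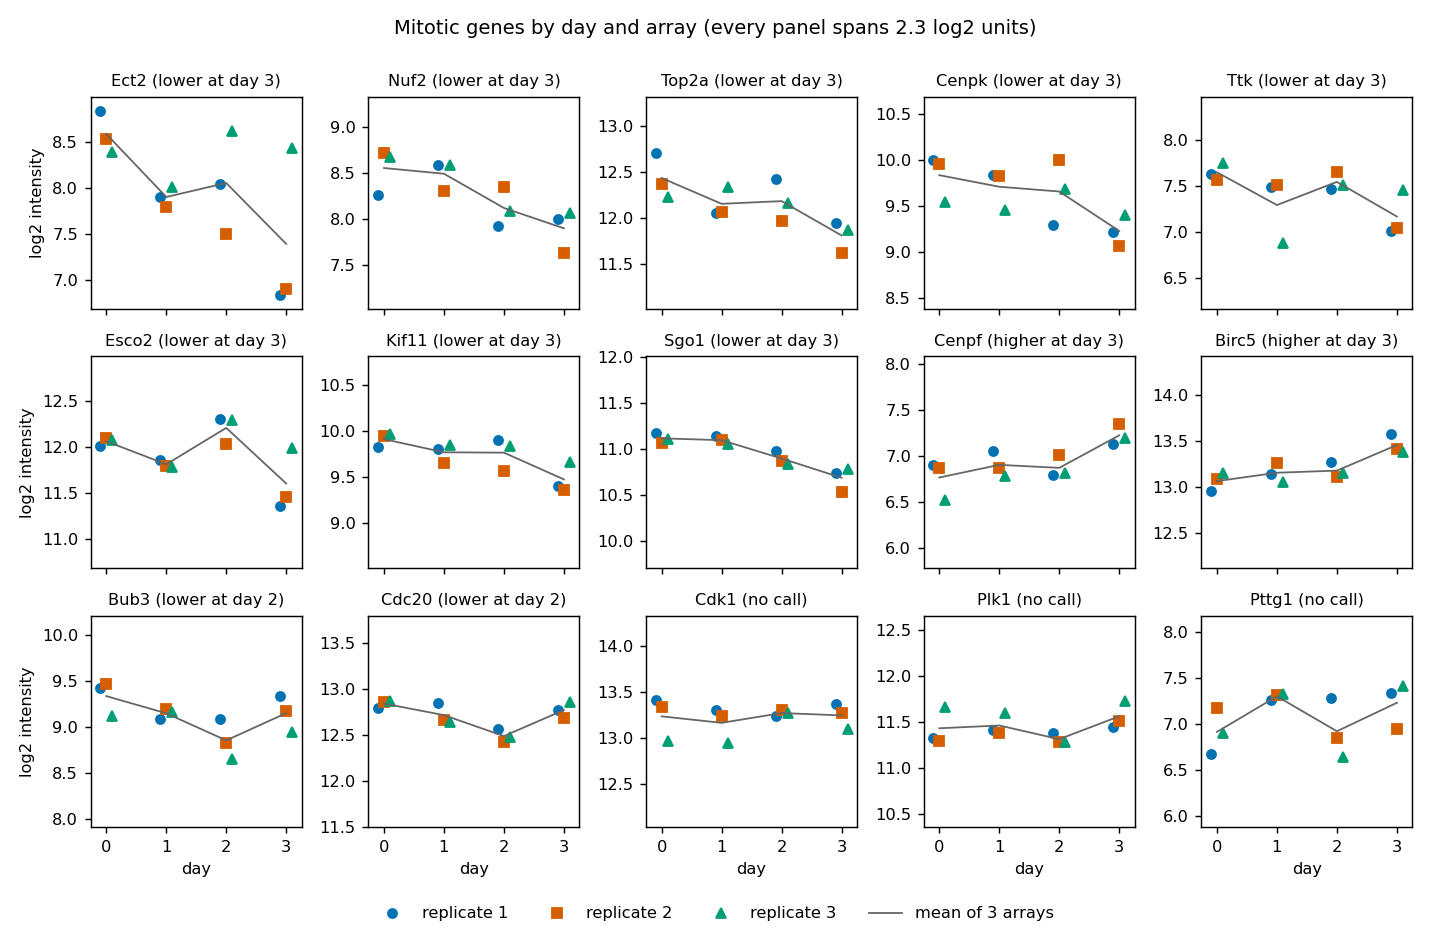
Normalized log2 intensity of 15 mitosis genes on each of the 12 arrays by day, with a line through the means of the days, and every panel spanning the same number of log2 units. The 3 day 3 arrays lie below all day 0 arrays for Nuf2, Top2a, Cenpk, Ttk, Esco2, Kif11 and Sgo1 and above them for Cenpf and Birc5, while those of Ect2 overlap day 0 through day 3 replicate 3.

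Of 6 tested spindle motors and microtubule proteins, Kif11 fell. Kif11 (Eg5) is the motor that pushes the spindle poles apart. It read 9.40, 9.35 and 9.66 at day 3, against 9.82, 9.95 and 9.96 at day 0. No array overlapped, with replicate 3 again the highest of day 3. The change was -0.44 ± 0.13 (1.35-fold lower, limma adjusted p = 0.0163), it was -0.40 without day 3 replicate 1 (adjusted p = 0.0545) and -0.38 without day 3 replicate 2 (adjusted p = 0.0601). Tpx2, which activates Aurora A and nucleates microtubules near chromosomes, read 8.77, 8.88 and 9.77 at day 3, against 9.50, 9.76 and 9.82 at day 0. Its day 3 arrays split, 2 below all day 0 arrays and replicate 3 within them, and the change of -0.55 did not pass (adjusted p = 0.0756). It was called with the replicate block (adjusted p = 0.0257) and without day 3 replicate 3 (-0.87, adjusted p = 0.00174). The microtubule depolymerase Kif2c had a change of -0.25, the chromokinesins Kif4 and Kif22 of -0.09 and 0.16, and the bundling protein Nusap1 of -0.09. Hmmr had 2 probes detected on 0 arrays, at 4.53 to 5.33.

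Of 5 tested genes of cytokinesis, all with changes below 0 at day 3, Ect2 fell and had the largest called change of the 43 genes. Ect2 is the exchange factor that activates RhoA at the cell equator. It read 6.84, 6.91 and 8.43 at day 3, against 8.84, 8.53 and 8.39 at day 0. Day 3 replicate 3 lay inside the day 0 range, so the groups overlapped, and day 1 (7.79 to 8.01) read below day 0 but did not pass (-0.68, adjusted p = 0.574). The mean was 7.39 ± 0.90 at day 3 and 8.59 ± 0.23 at day 0 (SD, n = 3 each), and the change was -1.19 ± 0.37 (2.29-fold lower, limma adjusted p = 0.0212). It was -0.92 without day 3 replicate 1 (adjusted p = 0.0881), -0.95 without replicate 2 (0.0848) and -1.07 without day 0 replicate 1 (0.0765). The central spindle motor Kif23 had a change of -0.19, with probes that differ in sign, the microtubule bundler Prc1 of -0.08, the ring scaffold Anln of -0.12 and the motor Kif20b of -0.26. Kif20a was detected on 0 arrays, at 4.91 to 5.68.

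Several probes were detected for 18 of the 43 genes, and in 14 of these all gave the same sign at day 3. Over the 70 detected probes of the 43 genes, 3 rose and 9 fell in a fit of all single probes, against 36.8% called of 14940 probes.

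Other genes of the same machinery, taken from lists beside the 50, fell more often than they rose. Of 101 tested at day 3, 4 rose and 29 fell (28.7%, against 17.8% of all genes), with a median change of -0.13. With no scaling between arrays 0 of the 101 rose and 5 fell, where 723 and 519 of the 9934 genes did, which is no excess of falls. At day 2, 0 rose and 9 fell (8.91%, against 7.6% of all genes). With 75th percentile scaling 18 fell at day 2, where 1357 of the 9934 genes did, and with no scaling 0 fell, where 24 did. At day 1 none was called by limma. The cell markers given above moved over the same days, and their part in these falls was not tested. The median of the 101 genes on each array was not computed, so the unevenness of the day 3 arrays was not checked for them.

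Cohesin and its regulators, the ring that Sgo1 protects and Esco2 acetylates, held 8 falls (57.1%) and 0 rises among 14 tested genes at day 3, where 17.8% of all genes fell and 21.4% rose. Their median change was -0.51 and that of all genes 0.01. Stag2, a subunit of the ring, averaged 9.71 ± 0.10 at day 3 and 10.61 ± 0.12 at day 0 (SD, n = 3 each). This was a change of -0.91 ± 0.12 (limma adjusted p = 0.00011), and at day 2 it was already -0.56 (adjusted p = 0.00663). Pds5a and Pds5b, which regulate release of the ring, had changes of -1.56 and -0.66, Wapl, the release factor, of -0.77, and Nipbl, the loader, of -0.53. Pds5a was detected on 1 of 3 arrays at day 3, so the size of its fall is uncertain, and it read 5.70, 5.31 and 6.82 there, against 7.77, 7.11 and 7.63 at day 0. The acetyltransferase Esco1, detected on 2 of 3 arrays at day 3, had a change of -1.06 and Cdca5 (sororin) of -0.49, after -0.68 at day 2. Hdac8, which deacetylates cohesin, was called lower (limma adjusted p = 0.0162), being detected on 0 of 3 arrays at day 3 and on 3 of 3 at day 0. The core subunits Smc1a (-0.18), Smc3 (0.15) and Rad21 (-0.41, detected on 3 of 12 arrays) were not called.

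The shares of all genes to set beside the next counts are 17.8% lower and 21.4% higher. Of 25 other kinetochore genes 5 fell (20%, close to the share of all genes) and 0 rose, Zwilch (-0.84), Dsn1 (-0.75) and Cenpi (-0.73) the most. Of 15 other genes of the checkpoint and the anaphase-promoting complex 3 fell (20%) and 2 rose (13.3%): the complex's subunits Cdc27 (-1.03), Cdc23 (-0.58) and Anapc4 (-0.30) fell, and its subunit Anapc2 (0.57) and the checkpoint silencer Mad2l1bp (0.67) rose. Of 27 centrosome and spindle genes 9 fell (33.3%) and 0 rose, with Cep55, an abscission protein, at -1.0, Plk4, the kinase of centriole duplication, at -0.87 and Psrc1 at -0.69. The 3 other condensin genes were not called. Of 8 regulators of mitotic entry and exit the phosphatase Cdc25a alone fell (-0.62), which is 12.5%.

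Of 9 tested transcription factors of G2 and M phase genes, 2 rose (22.2%, where 21.4% of all genes rose) and 3 fell (33.3%, where 17.8% fell) at day 3. Foxm1, an activator of these genes, had a change of 0.56 ± 0.15 (limma adjusted p = 0.00888) and Mybl2, which joins the MuvB complex, of 0.40 ± 0.12 (adjusted p = 0.0162). The NF-Y subunits Nfya and Nfyb had a change of -0.94 and -0.38 and the E2F partner Tfdp1 of -0.55. Nfya was detected on 2 of 3 arrays at day 3 and on 3 of 3 at day 0.

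**Figure D4:**
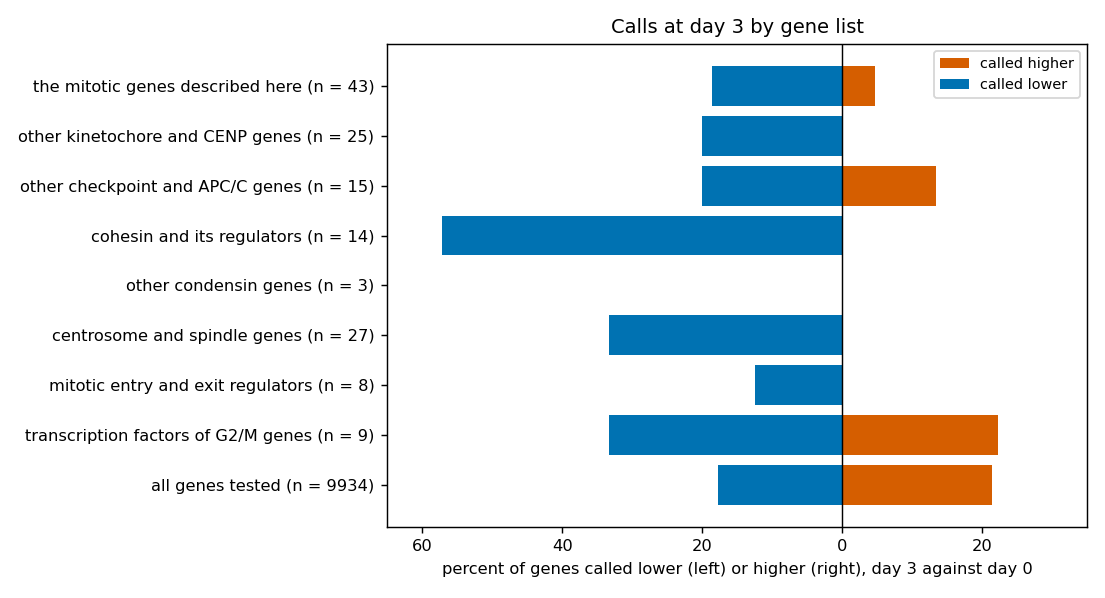
Percent of tested genes called higher and lower at day 3 against day 0 by limma, for the 43 mitosis genes, the related lists and all genes tested. The 43 mitosis genes stand at 4.65% higher and 18.6% lower, cohesin and its regulators at 0% and 57.1%, and all genes at 21.4% and 17.8%.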

How the data were processed

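Expression was measured on 12 Illumina bead arrays, 3 at each of days 0, 1, 2 and 3. The table the authors deposited without normalization holds intensity values per probe and array, linear bead signals with no background subtraction or scaling seen in them. It also holds, as deposited, a detection p-value for each, with steps that match ranks among 936 negative controls. Arrays were read with GenomeStudio, per the submitters' processing notes, without a stated version. A second deposited table of intensity values normalized by the authors in a way not stated served as an alternative. The number of per-sample columns not used was 0.

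The function neqc (limma 3.58.1, R 4.3.3) subtracted background, with an offset of 16, and equalized array quantiles, and log2 values were analysed. A probe needed a detection p under 0.01 on 3 or more arrays. The platform annotation named 34885 probes with 1 symbol, 18 with several and left 10378 unnamed, and 34807 matched the RefSeq table (GRCm38.p6) by Entrez ID with 0 symbols updated. The brightest detected probe stood for its gene. All 12 arrays entered 1 linear model of the day (lmFit, eBayes), two-sided, with Benjamini-Hochberg adjustment over 9934 genes, and was tested on simulated data. Values after ± are standard errors unless called SD. The number of arrays limits precision.

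The genes and lists were chosen with earlier results of these data known. Values per array are given for genes called at day 3, for the gene of largest change in a role group with none, and for the 2 genes called at day 2 and for Tpx2 and Pds5a, which were added after their values were seen. The 3 largest called rises and falls of each related list are named, and all called cohesin genes. Same-numbered replicates deviated together between days 3 and 0 (correlations 0.26 to 0.42) and days 1 and 0 (0.20 to 0.44). So they did between days 3 and 2 (0.07 to 0.46). This did not hold in every pair between days 2 and 0 (-0.03 to 0.25) or days 2 and 1 (-0.02 to 0.26). The numbers thus pair the arrays of days 3 and 0, of days 1 and 0 and of days 3 and 2. The reported calls come from the model without the numbers. Where the block changes a call at day 3 against day 0, the blocked value stands beside the result. The blocked count for day 3 against day 2 is given with its result. For the remaining comparisons and the F test, blocked counts are given in the closing section only.

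Alternatives were other scalings, no background correction, the authors' values, other filters, averaged probes, the replicate block, array weights and leaving out each array. A slide block was not run because the files name no slides. The CHR, CCAAT and TTCGAA letters were counted in RefSeq promoter windows.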

Additional observations from a re-analysis of the deposited data

How the results depend on the processing

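No called gene changed direction in any of the 22 alternatives run. The share of the 43 mitosis genes called in either direction at day 3 and at day 2 was below that of all genes in all 22. At day 3 this did not hold for falls alone, which were 18.6% against 17.8% in the reported model. With 75th percentile scaling 13 of the 43 were called, all but 1 lower, where 2165 of 9934 genes were lower. Without day 3 replicate 3, 11 of the 43 fell, where 1843 of 9934 genes did. At day 3 against day 0, 3889 genes became 1242 with no scaling between arrays, where 0 mitosis genes rose and 0 fell. The 2 rises became 1 with 75th percentile scaling, without background correction or with the authors' values. At day 2 the 2 falls became 6 with 75th percentile scaling and 0 with no scaling, with 1023 genes called, and 1 gene rose with the replicate block or array weights. Of the genes called at day 2, 66.1% were higher, 46.6% with 75th percentile scaling and 97.7% with no scaling, which moves the median of all genes at day 2 to 0.27. The median of the 43 genes relative to it stayed below 0, between -0.13 and -0.05. At day 1 the 10 genes called became 17 with loess, 1 with no scaling, 3 without background correction or with the authors' values, 2 with detection on at least 1 array, 21 with averaged probes, 24 with the replicate block and 34 with array weights, with no mitosis gene in any.

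At day 2 against day 1, 1 mitosis gene fell with 75th percentile scaling, 1 rose without background correction, with the authors' values or with the block, and 2 rose with array weights (2030 genes), while no scaling left 371 genes. At day 3 against day 2 no scaling left 187 genes and 0 falls, 1 rose without background correction or with the authors' values, 3 rose and 7 fell with array weights (2112 genes). Across all days the 4 genes became 9 with 75th percentile scaling, 0 with no scaling (1216 genes), 8 without background correction or with the authors' values and 12 with array weights. The causes were not tested.

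With the replicate number as a block, 4521 genes and 12 mitosis genes were called at day 3 against day 0, Ttk being lost and Bub1b, Tpx2 and Spc24 gained, and it changed no other day 3 call of these genes. For day 2 against day 0, where the numbers do not pair the arrays, 2896 genes were called, and Prc1 was the 1 mitosis gene higher. At day 3 against day 2 the block called 1973 genes, with 1 rise and 4 falls, and across all days 11 mitosis genes. Same-numbered arrays correlated at -0.03 to 0.46 over 18 pairs.

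Leaving out 1 array in turn gave 3245 to 4019 genes, 1 to 3 rises and 3 to 11 falls at day 3 against day 0. It gave 1575 to 2524 genes, 0 rises and 0 to 3 falls at day 2, and 0 to 15 genes and 0 mitosis genes at day 1. For day 2 against day 1 it gave 512 to 1300 genes, 0 to 1 rises and 0 falls, for day 3 against day 2 577 to 1797 genes, 0 rises and 0 to 7 falls, and across all days 3170 to 3998 genes and 0 to 10 mitosis genes. The highest mitosis counts among these for day 3 came without day 3 replicate 3. Among called genes, Nuf2, Sgo1 and Top2a were lost in 1 of 22 settings, Kif11 in 3, Birc5 and Ect2 in 4, Cenpk and Cenpf in 5, Esco2 in 6 and Ttk in 13. Signals near the detection limit kept 6 listed genes out of the test.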
